A study of Mus musculus with 6 samples.

Results

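The axon initial segment and node genes are 10 genes for the ankyrin and spectrin skeleton and the adhesion molecules that organise the excitable parts of the axon. They were chosen by symbol: Ank2, Ank3, Sptbn4, Nfasc, Nrcam, L1cam, Cntn1, Cntn2, Cntnap1 and Cntnap2. All 10 were found among the 23306 rows of the count table. RNA on tagged ribosomes of parvalbumin neurons, which are fast-spiking cortical interneurons that release GABA, was sequenced from frontal cortex of male C57BL6 mice. One group carried an Fxr1 conditional knockout (cKO) made with PV-Cre, and the other was labelled wild type; the Fxr1 protein binds RNA and is a relative of the fragile X protein FMRP. Per the labels' protocols, the PV-Cre::RiboTag mice come from crossing a parvalbumin-cre driver with mice bearing an HA-tagged RPL22 allele over wild type RPL22, so that Cre-expressing cells carry tagged ribosomes. Neither the age of the mice nor how many were pooled for a library is stated. Whether each library had its own mouse is not stated either, so the spread behind every p-value may in part be technical.

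The series has 6 libraries, of which 4 were analysed: Fxr1 cKO replicates 1 and 3 and wild type replicates 2 and 3, with 9696126 to 10301280 counts each. Fxr1 measured 17.8 and 18.7 CPM (counts scaled to the same library total) in the cKO libraries, against 98.4 and 101 CPM in wild type. The precursor of ribosomal RNA, Rn45s, stood at 7110.0 CPM in cKO replicate 1 and between 2827 and 3152 CPM in the other 3 libraries. The 15 parvalbumin neuron markers summed to 12990 and 12963 CPM in cKO and to 13297 and 13473 CPM in wild type. Gad1 was the largest part, at 4245 and 4048 CPM in cKO and 4354 and 4295 CPM in wild type. Pvalb itself measured 248 and 241 CPM in cKO, against 262 and 264 CPM in wild type. Of the 15, 5 had fitted values above 0 and 10 below, with a median of −0.05, and 0 passed by edgeR. Transcripts of other cells were also present: the 11 excitatory neuron markers summed to 1129 and 1170 CPM in cKO and to 1169 and 1076 CPM in wild type, and the 8 astrocyte markers to 617 and 722 CPM in cKO and 673 and 642 CPM in wild type. In such pooled material, fewer cells of a type and less RNA per cell cannot be told apart.

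The initial segment is the stretch of axon beside the cell body where action potentials start. Ankyrin-G, the product of Ank3, is its master scaffold: it binds beta-IV spectrin (Sptbn4) inside the cell and holds sodium and potassium channels and the L1-family adhesion molecules neurofascin (Nfasc) and NrCAM (Nrcam) in the membrane. The same scaffold is used at nodes of Ranvier in myelinated axons, and cortical parvalbumin neurons are among the interneurons whose axons can be myelinated. Beside the node, contactin-1 (Cntn1) and Caspr (Cntnap1) in the axon form the paranodal junction with glial neurofascin, and further out contactin-2 (Cntn2) and Caspr2 (Cntnap2) hold Kv1 potassium channels at the juxtaparanode. Ankyrin-B, from Ank2, lies mainly along the rest of the axon, and L1cam encodes the founding member of the L1 family, an adhesion molecule of growing axons.

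What joins 3 of these genes to the ankyrins can be seen in their coding sequence. L1-family proteins bind ankyrin through a short cytoplasmic motif known as FIGQY, whose tyrosine, when phosphorylated, weakens the binding. A search for that motif in frame in the coding transcripts of GENCODE M21 (mm10) found it in Nfasc, Nrcam and L1cam and in 4 other genes, 7 of 21877 coding genes or 0.032%. The fourth L1-family gene, Chl1, carries the variant FIGAY, found in 4 genes or 0.0183%. The coding stretches, 51 bases each with the codons of the motif in capitals, all lie in the last exon of the transcript used:
Nfasc: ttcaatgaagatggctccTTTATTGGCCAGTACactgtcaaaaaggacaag
Nrcam: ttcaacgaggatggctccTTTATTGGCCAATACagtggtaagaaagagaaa
L1cam: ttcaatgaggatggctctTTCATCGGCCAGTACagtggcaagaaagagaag
Chl1: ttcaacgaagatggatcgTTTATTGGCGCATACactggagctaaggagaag

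The stretch of Nfasc is at chr1:132570489-132570539 on the minus strand and that of Nrcam at chr12:44598468-44598518 on the plus strand. The stretch of L1cam is at chrX:73855104-73855154 on the minus strand and that of Chl1 at chr6:103729231-103729281 on the plus strand. Within the capitals, counting from 1 at the first capital of Nfasc, Nrcam differed by G12A and L1cam by T3C and T6C. Chl1 differed by C10G, A11C and G12A. The motif was present in 5 of 6 annotated coding transcripts of Nfasc, 4 of 7 of Nrcam and 4 of 6 of L1cam. The deposited counts are sums per gene symbol, so transcript forms, such as the neuronal and glial forms of neurofascin or the giant forms of the ankyrins, were not separated. Between members no stretch of 50 bases was shared, and at most 3.44% of a member's annotated 50-base stretches, in Cntnap1, occurred in any other gene.

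Transcripts of all 10 genes were abundant and differed little between genotypes. None of the 10 passed the test of cKO against wild type (quasi-likelihood fits in edgeR, p-values adjusted by Benjamini and Hochberg's method over all genes, threshold 0.05; adjusted p = 0.998 for each), beside 4 of 12449 genes tested, 0.0321%. The 4 were 2 higher and 2 lower, or 0 higher and 1 lower with library totals as the only scaling. DESeq2's Wald test and limma voom passed none of the 10 either. An unadjusted p under 0.05 was reached by 1 member, Sptbn4, by edgeR and by voom and by none in DESeq2, against 3.23% of all genes by edgeR. All 10 passed the filter on low counts. Fitted log2 fold changes were above 0 for 5 members and below 0 for 5, with a median of 0.0025, beside −0.0015 over all genes tested. The 95% intervals, not adjusted for the number of genes, reached from 0.843-fold at the lowest bound (Cntnap2) to 1.23-fold at the highest (Sptbn4), so that larger changes in either direction lay outside all 10 intervals. The median standard error of the members was 0.07 (log2), against 0.13 over all genes tested. Over the 2193 tested genes at 100 CPM or more, as all members were, it was 0.08.

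**Figure D1:**
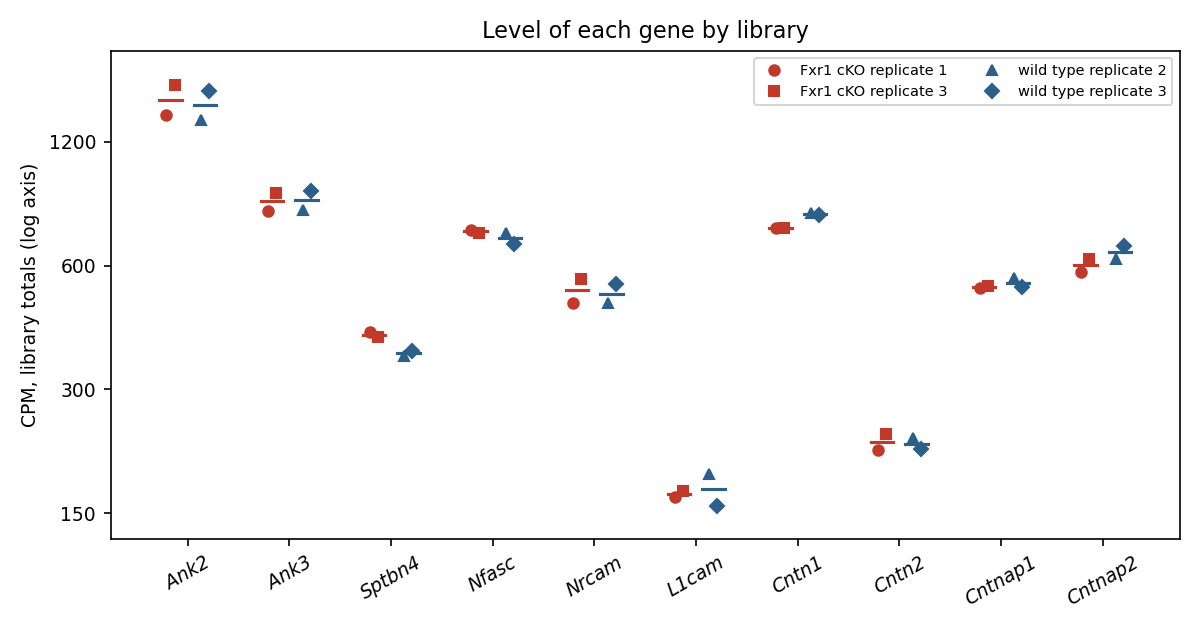
Level of each gene in CPM from library totals (log axis) in 2 Fxr1 cKO and 2 wild type libraries; horizontal lines are genotype means. Ank2 is highest and L1cam lowest, and the genotypes are separated for Sptbn4 and Cntn1, and narrowly for Cntnap2 and Nfasc.

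The ankyrins were the highest of the group by counts, and varied more between libraries of a genotype than between genotypes. Ank2 (mm10 chromosome 3, 126921612 to 127499350) measured 1392 and 1649 CPM in cKO replicates 1 and 3, against 1357 and 1595 CPM in wild type replicates 2 and 3. Its means were 1520.5 ± 181 CPM in cKO and 1476 ± 168 CPM in wild type (SD, n = 2 each, as throughout). The genotypes overlapped: the libraries of cKO lay 0.24 apart on the log2 scale and those of wild type 0.23, while the means lay 0.04 apart. Ank3 (chromosome 10, 69398773 to 70027438) showed the same layout, with 817 and 903 CPM in cKO replicates 1 and 3, against 822 and 913 CPM in wild type replicates 2 and 3. The fitted log2 fold change was 0.04 for Ank2 (SE 0.09; 95% interval −0.16 to 0.24). For Ank3 it was −0.01 (SE 0.07; 95% interval −0.16 to 0.13). Neither fitted direction held when single libraries were left out: Ank2 turned to −0.07 without cKO replicate 3 and without wild type replicate 2, and Ank3 turned to 0.04 without cKO replicate 1 and 0.08 without wild type replicate 3.

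Sptbn4 (chromosome 7, 27356383 to 27447686), the gene of the beta spectrin that ankyrin-G recruits to the initial segment and node, had the largest fitted value of the 10. It measured 414 and 402 CPM in the cKO libraries, against 362 and 373 CPM in wild type, with 4211 and 4131 counts against 3509 and 3841. Both cKO libraries thus stood above both wild type libraries, and the gap between the genotype means, 0.15 on the log2 scale, exceeded the 0.04 between libraries of either genotype. The log2 fold change was 0.15 (SE 0.07; 95% interval 0.01 to 0.29), with an unadjusted p of 0.0362 and an adjusted p of 0.998 by edgeR. The fold change lay between 0.12 and 0.19 whichever library was left out, and the adjusted p by edgeR between 0.805 and 0.999994 over all alternatives. For 2 libraries against 2, the smallest two-sided p of an exact permutation test is 0.333.

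Of the L1-family adhesion genes, Nfasc and Nrcam encode the partners of ankyrin-G that gather at the initial segment and node. Nfasc (chromosome 1, 132564690 to 132741797) measured 734 and 722 CPM in cKO and 721 and 679 CPM in wild type. The cKO libraries stood above wild type in CPM of library totals, the nearest pair being cKO replicate 3 and wild type replicate 2, and the genotypes overlapped once TMM factors, which correct library sizes for composition, were applied. The log2 fold change was 0.06 (SE 0.07; 95% interval −0.08 to 0.19). Nrcam (chromosome 12, 44328885 to 44601964) measured 488 and 558 CPM in cKO replicates 1 and 3, against 486 and 539.9 CPM in wild type replicates 2 and 3. Its genotypes overlapped, in the order of libraries seen for the ankyrins, and its log2 fold change of 0.03 (SE 0.07; 95% interval −0.13 to 0.18) turned to −0.06 without cKO replicate 3 and −0.05 without wild type replicate 2. L1cam (chromosome X, 73853778 to 73896105) was the lowest of the 10, with 164 and 169 CPM in cKO and 187 and 156 CPM in wild type. Both cKO libraries fell between the wild type libraries, and the log2 fold change was −0.04 (SE 0.08; 95% interval −0.21 to 0.13), or 0.09 without wild type replicate 2. By counts alone, Nfasc made up 53.0% and 49.8% of the sum of these 3 genes in cKO, against 51.7% and 49.4% in wild type; the genotypes overlapped (exact permutation test, two-sided p = 0.667, n = 2 each).

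The contactins and Caspr proteins work in pairs at the borders of the node. Cntn1 (chromosome 15, 92051165 to 92341967) measured 739.5 and 740.0 CPM in cKO, against 804 and 797 CPM in wild type. Its libraries agreed closely within each genotype, and both cKO libraries stood below both wild type libraries. The log2 fold change was −0.11 (SE 0.06; 95% interval −0.25 to 0.02), with an unadjusted p of 0.0926 and an adjusted p of 0.998 by edgeR, and between −0.13 and −0.10 whichever library was left out. Its paranodal partner Cntnap1 (chromosome 11, 101170523 to 101190724) measured 530.1 and 534 CPM in cKO and 558 and 532 CPM in wild type. The cKO libraries of Cntnap1 lay within or just under the wild type range, with a log2 fold change of −0.03 (SE 0.07; 95% interval −0.17 to 0.10). Cntnap1 shares 233 exon bases, 3.97% of its own, with Plekhh3 on the opposite strand, which measured 8.55 to 9.90 CPM; reads of these bases cannot be assigned, since it is not stated whether counting used strand.

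At the juxtaparanode, Cntn2 (chromosome 1, 132509427 to 132543256) measured 214 and 233 CPM in cKO and 228 and 214 CPM in wild type, with overlap and a log2 fold change of 0.02 (SE 0.07; 95% interval −0.13 to 0.17). That value was −0.03 without cKO replicate 3 and −0.02 without wild type replicate 3. Cntnap2 (chromosome 6, 45059357 to 47304213), whose product Caspr2 clusters Kv1 channels, measured 579 and 622 CPM in cKO, against 624 and 669 CPM in wild type. Both cKO libraries stood below both wild type libraries, but cKO replicate 3 and wild type replicate 2 nearly touched. The log2 fold change was −0.11 (SE 0.07; 95% interval −0.25 to 0.03), with an unadjusted p of 0.128 and an adjusted p of 0.998 by edgeR. It ranged from −0.16 without wild type replicate 2 to −0.05 without wild type replicate 3. Cntn2 made up 22.5% and 24.0% of the counts of the contactin pair in cKO, against 22.1% and 21.2% in wild type. This share was higher in both cKO libraries, by 1.58 percentage points on average, which gives the smallest p the design allows (exact permutation test, two-sided p = 0.333, n = 2 each). Cntnap1 made up 47.8% and 46.2% of the Caspr pair in cKO, against 47.2% and 44.3% in wild type, with overlap (exact permutation test, two-sided p = 0.667, n = 2 each). Ank3 made up 37.0% and 35.4% of the ankyrin pair in cKO, against 37.7% and 36.4% in wild type, also with overlap (exact permutation test, two-sided p = 0.667, n = 2 each).

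In CPM scaled by TMM factors, the genotypes did not overlap for 3 of the 10 members, Sptbn4, Cntn1 and Cntnap2, beside 30.1% of all genes tested. The share among the members is near that background. The same 3 were the members whose genotype means lay farther apart than the libraries of either genotype did. For Cntnap2 the means lay 0.107 apart on the log2 scale and the cKO libraries 0.103. How many of all genes met this was not counted.

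**Figure D2:**
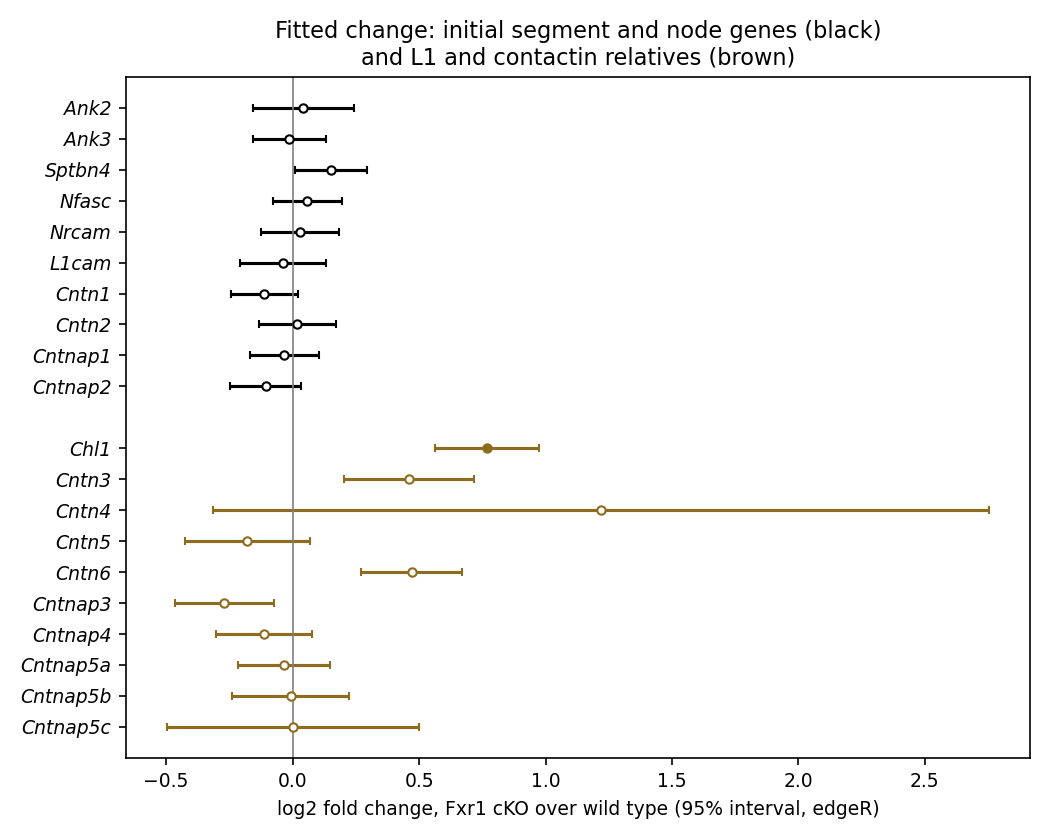
Fitted log2 fold change of Fxr1 cKO over wild type with its 95% interval for the 10 genes (black) and for the other L1-family, contactin and contactin-associated genes (brown); filled points passed the test over all genes. All 10 black points lie between −0.11 and 0.15, and the filled point is Chl1 at 0.77.

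Some relatives of these adhesion genes, not the list as a whole, held larger fitted values, which ranged from −0.27 to 1.22. The list held 15 L1, neural cell adhesion, contactin and contactin-associated relatives with receptor phosphatases that bind contactins. Of these, 8 had fitted values above 0 and 7 below, with a median of 0.0022. An unadjusted p under 0.05 by edgeR was reached by 4, beside 3.23% of all genes tested. In TMM-scaled CPM the genotypes did not overlap for 8, beside 30.1% of all genes tested. After adjustment, 1 gene of the list passed. That gene, Chl1, which carries the FIGAY stretch shown above, measured 135 and 173 CPM in cKO, against 94.0 and 86.4 CPM in wild type. Its log2 fold change of 0.77 (SE 0.10), which had an adjusted p of 0.00134 by edgeR, compares with fitted values from −0.04 to 0.06 for the other 3 genes of the L1 family. Its adjusted p ranged from 6.71e-16 to 0.0563 over the alternatives, and missed the threshold with library totals as the only scaling. Contactin genes with the next smallest p were Cntn6 at 0.47 (SE 0.10; adjusted p = 0.10 by edgeR) and Cntn3 at 0.46 (SE 0.13; adjusted p = 0.77), which did not pass in the full fit, while Cntn1 and Cntn2 had −0.11 and 0.02. Without cKO replicate 1 the fitted values were 0.54 for Cntn6 and 0.59 for Cntn3, and without cKO replicate 3 they were 0.40 and 0.31. Cntn6 passed with no filter on low counts (adjusted p = 0.00459 by edgeR). Cntn4, named after its values were seen for its wide interval, had 1.22 (SE 0.39; adjusted p = 0.998 by edgeR) and passed by voom (adjusted p = 0.0111) and without robust fits (adjusted p = 0.00427). With 1 library left out, its fitted value lay between 0.79 without cKO replicate 3 and 1.55 without cKO replicate 1. Adjusted p-values of such fits are left out for the contactins, because the single library that remains in a genotype has no spread of its own. Cntnap3, also with an unadjusted p under 0.05, had a fitted value below 0. It measured 53.9 and 62.1 CPM in cKO, against 67.4 and 72.4 CPM in wild type. Its log2 fold change was −0.27 (SE 0.10), with an unadjusted p of 0.00855 and an adjusted p of 0.998 by edgeR. Whether Chl1 differs from the other L1-family genes in its change was not tested. Chl1 lies on chromosome 6 with neighbouring contactin genes, so the fitted values of such neighbours need not be separate observations. Whether they are was not tested.

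A list of 10 other genes of the ankyrin and spectrin skeleton, with its adducin and protein 4.1 partners, gave 8 of 10 fitted values above 0, beside 49.6% of all genes. Their median was 0.09, and 0 passed by edgeR, with 0 at an unadjusted p under 0.05; by DESeq2 and voom 0 passed as well. Ank1 (0.10, SE 0.07), which encodes ankyrin-R, a scaffold known from fast-spiking interneurons, Add1 (0.12, SE 0.07) and Add2 (0.08, SE 0.07), the adducins that cap actin filaments, had the smallest p. With a library left out, 6 to 8 of the 10 lay above 0, the fewest without wild type replicate 2, and the median was 0.03 without cKO replicate 1 and 0.04 without cKO replicate 3 or wild type replicate 2. Sptb passed without cKO replicate 1 (adjusted p = 6.4e-33 by edgeR) and without wild type replicate 3 (adjusted p = 4.33e-13 by edgeR). In the full fit its adjusted p was 0.998, and a fit without a library borrows the spread of the other genotype for the single library that remains.

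Several of the large skeleton transcripts shared an order of libraries that crosses the genotypes. Sptan1, the alpha spectrin gene, measured 2325 and 2824 CPM in cKO replicates 1 and 3, against 2158 and 2593 CPM in wild type replicates 2 and 3. Sptb, a beta spectrin gene, measured 1327 and 2446 CPM in those cKO libraries and 1098 and 1573 CPM in wild type. Sptan1, Sptb, Sptbn1, Ank2, Ank3 and Nrcam were all higher in cKO replicate 3 and wild type replicate 3 than in cKO replicate 1 and wild type replicate 2. Sptbn4 did not follow that order, nor did Ank1, with 1466 and 1304 CPM in cKO and 1273 and 1311 CPM in wild type. The order was not particular to skeleton genes. The potassium channel gene Kcna1 had it too, with 1129 and 1262 CPM in cKO and 1094 and 1223 CPM in wild type. How many of all genes had it was not counted. Cntnap1, Nfasc, Cntn2 and Cntn1 had the lowest coefficients of variation over the 4 libraries, from 2.47% to 4.57%, against 9.68% for Ank2. These genes were picked out after their values were seen.

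**Figure D3:**
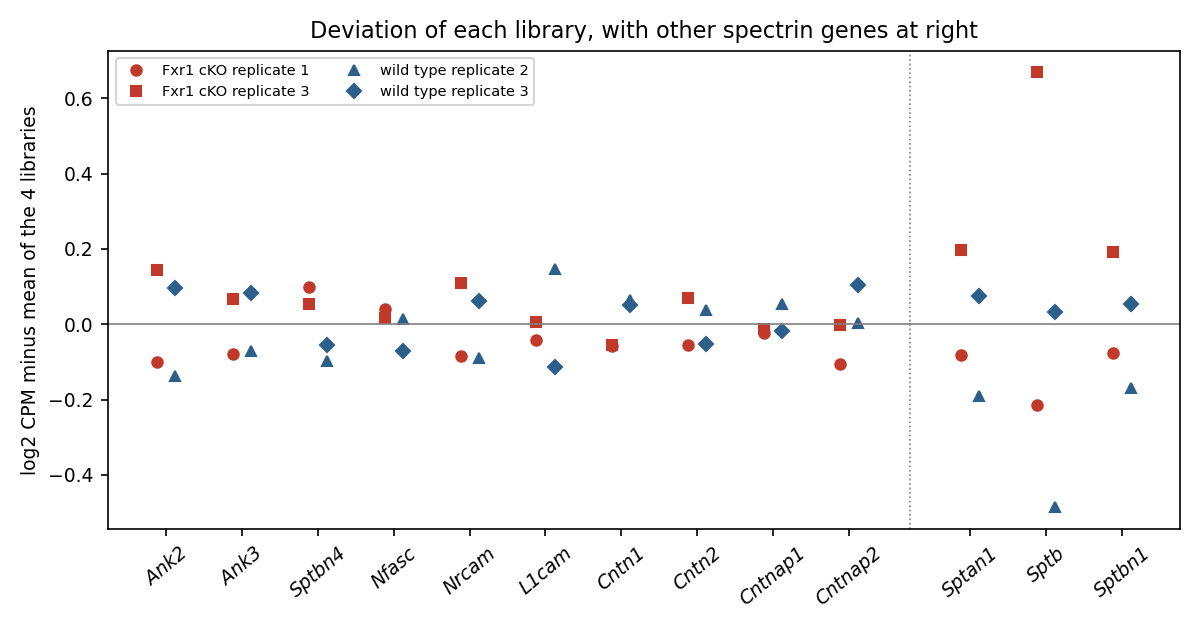
Deviation of log2 CPM of each library from the mean of the 4 libraries, for the 10 genes and, right of the dotted line, 3 other spectrin genes; red symbols are Fxr1 cKO and blue symbols wild type libraries. Ank2, Ank3, Nrcam and the spectrins at right are high in replicate 3 of both genotypes, Sptbn4 is high in both cKO libraries, and Cntn1 is low in both.

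No transcript for channels and other proteins of the same compartments passed the test either. Intervals were wide for some of the less abundant ones, such as Hapln2 with 0.441-fold to 1.29-fold. Of 24 further initial segment genes, 23 were tested, with 13 fitted values above 0, 10 below, a median of 0.01 and 0 passing by edgeR; 1, the sodium channel beta subunit gene Scn2b, had an unadjusted p under 0.05 (0.0464), and 0 passed by DESeq2 or voom. Scn2b measured 423 and 463 CPM in cKO, against 394 and 408 CPM in wild type (log2 fold change 0.14, SE 0.07, with an adjusted p of 0.998 by edgeR). The scaffold gene Magi1 (0.13, SE 0.07) and the microtubule-associated protein gene Map1a (−0.11, SE 0.07) came next in p. Of 16 paranode, juxtaparanode and perinodal matrix genes, 15 were tested, with 9 fitted values above 0, 6 below, a median of 0.01 and 0 passing by edgeR, DESeq2 or voom; 0 had an unadjusted p under 0.05 by edgeR. Of these, Ptprz1, a receptor phosphatase gene (0.17, SE 0.12), Hapln2, a link protein gene of the nodal matrix (−0.41, SE 0.38), and Vcan, which encodes versican (0.14, SE 0.16), had the smallest p. Gldn, the gliomedin gene, stood at 0.206 to 0.680 CPM and was not tested.

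Levels can be compared between genes only per length. Divided by the length of all annotated exons, Cntnap1 was highest at 91.7 ± 2.26 CPM per kb (SD over 4 libraries, as for the following), then Cntn1 at 81.6 ± 3.73, Cntnap2 at 60.9 ± 3.60 and Nfasc at 50.5 ± 1.70 CPM per kb, in 4 steps whose ranges over libraries did not overlap. Ank2 followed at 42.8 ± 4.14, Sptbn4 at 40.5 ± 2.55 and Nrcam at 38.8 ± 2.75 CPM per kb, neighbours that overlapped. Ank3 at 24.8 ± 1.48, Cntn2 at 23.9 ± 1.06 and L1cam at 23.0 ± 1.78 CPM per kb overlapped likewise and stood below the rest. On this scale the members lay between the 85.6th percentile (L1cam) and the 97.6th (Cntnap1) of the 11684 tested genes with an annotated length. The order turned on the length used, since Ank2 and Ank3 have 35004 and 34838 exon bases in all but 14305 and 9963 in their longest annotated transcript. Per kb of the longest transcript, Cntn1 led at 136 ± 6.20, Ank2 followed at 105 ± 10.1 and Ank3 came to 86.7 ± 5.18 CPM per kb. Cntn2 and L1cam stayed lowest on both scales, at 30.3 ± 1.34 and 33.0 ± 2.55 CPM per kb of the longest transcript.

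**Figure D4:**
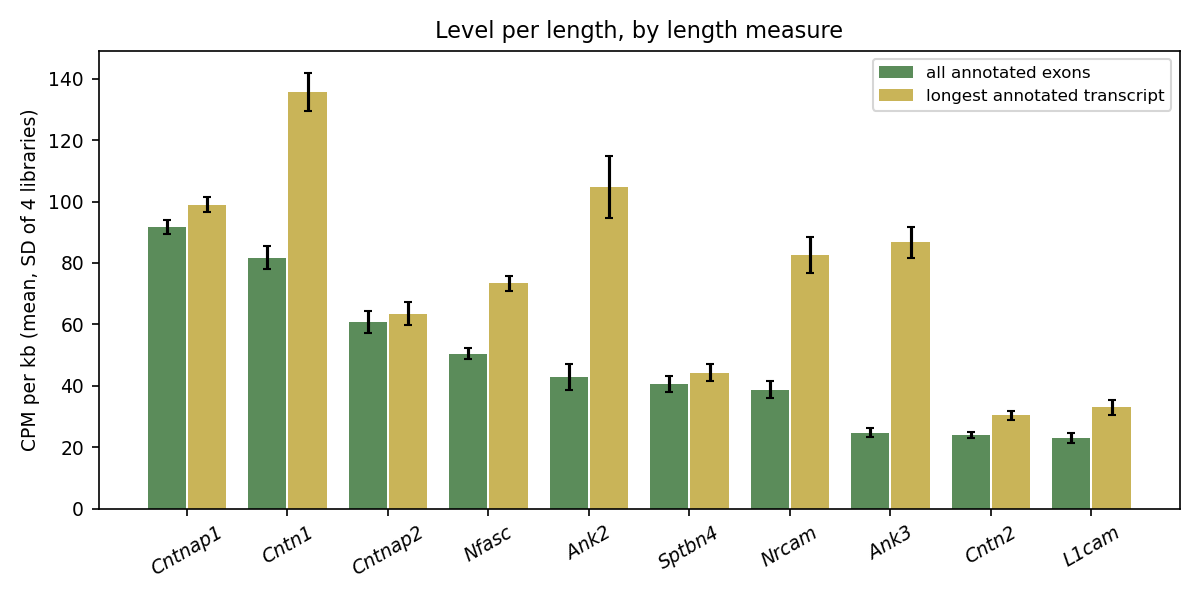
Mean CPM per kb over 4 libraries, with the SD, for each gene, using the length of all annotated exons (green) or of the longest annotated transcript (yellow). Cntnap1 is highest at 91.7 on the first scale and Cntn1 at 136 on the second, and Ank2 and Ank3 stand higher in the order on the second.

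Some of these transcripts are also made by glia: Nfasc has a glial form at the paranode, and Cntn1 and Cntn2 are known from cells of the oligodendrocyte lineage. The 16 oligodendrocyte markers, of which none was at 0 and 15 were tested, summed to 343 and 469 CPM in cKO replicates 1 and 3 and to 370.4 and 341 CPM in wild type replicates 2 and 3; Mag and Mog, defining markers, stood at 6.79 to 8.65 and 2.14 to 3.92 CPM. The 6 precursor markers, again none at 0, summed to 27.4 and 34.6 CPM in cKO and to 28.5 and 28.2 CPM in wild type. Both sums were highest in cKO replicate 3, where Cntn2 was also at its highest of 233 CPM, and Nfasc and Cntn1, at 722 and 740.0 CPM, were not. Ank2 and Nrcam, at 1649 and 558 CPM, were highest in that library as well, so this was not particular to Cntn2. The part of glial RNA in the members' values was not tested.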

How the data were processed

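The deposited values are raw, unnormalized counts for each gene symbol. Libraries were made from ribosome-bound RNA with Takara's SMARTer kit for stranded total RNA, per the labels' protocols. The submitters' processing notes name STAR and mm10; how reads were then counted, with which annotation and strand setting, is not given in the sources used here. Of 6 sample columns, 4 matched the title of a single sample; 2, both carrying the title of wild type replicate 1, were not used, so the planned groups of 3 became 2 against 2. Replicate numbers follow accession order.

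The test of cKO against wild type used robust quasi-likelihood fits of edgeR 4.0.16 in R 4.3.3, after TMM and filterByExpr, with Benjamini-Hochberg adjustment over 12449 genes; standard errors and intervals were derived from the F statistic. CPM use library totals; whether genotypes overlap in counts of genes was judged on TMM-scaled CPM. The fit was also run on simulated data with changes larger than any fitted for the members, so that run does not bear on changes of the members' size. Alternatives were library totals, size factors and the Wald test of DESeq2 1.42.0, voom of limma 3.58.1, no filter, at least 5 CPM in 3 libraries, non-robust fits, removal of ribosomal and small RNAs, and each library left out. Coordinates, lengths and sequences are from GENCODE M21 (mm10), and some list symbols were matched through older names. One gene of the planned lists is not reported here and was left out of its list's counts. Named are all members, Fxr1, and per list the 3 smallest p or genes past the threshold. Cntn4, Cntnap3, and Kcna1 and the spectrins shown for library order were added after their values were seen. The members and lists were chosen with earlier results of these data known. No gene was sought for a like pattern, since 4 libraries are too few. Counting error alone is small at these depths. The fit shares information on the spread between libraries across genes, so a gene's own 2 libraries per genotype do not alone set its standard error.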

Additional observations from a re-analysis of the deposited data

How the results depend on the processing

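None of the 10 members passed under any of the 12 alternatives, with adjusted p-values from 0.805 (Sptbn4 without Fxr1 cKO replicate 3, by edgeR) upwards. The count of 4 genes past the threshold over all genes was 13 without a filter on low counts, 2 by the Wald test and 1 with library totals, and 9 to 48 with a library left out. Sptbn4, Nfasc, Cntn1, Cntnap1 and Cntnap2 kept their fitted direction throughout. Others turned with libraries left out, over ranges of −0.0748 to 0.173 for Ank2, −0.0928 to 0.0753 for Ank3, −0.0587 to 0.116 for Nrcam, −0.154 to 0.0901 for L1cam and −0.0319 to 0.0665 for Cntn2. So did the difference in share of cKO minus wild type, from −0.218 to 2.72 percentage points for Cntnap1 and from −0.753 to 2.43 for Nfasc. Leaving out a library gave −1.68 to −0.0909 points for Ank3 and 0.811 to 2.34 for Cntn2. The median level per length of the members was 41.8 CPM per kb of all exons and 77.9 per kb of the longest transcript, by construction of the length. What caused the other changes was not tested. With 2 libraries per genotype, changes within the intervals given could not be told from none. No paired analysis was possible because the labels number no replicates.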
